A study of Mus musculus with 62 samples.

Results

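The genes described here are 33 genes of cholesterol and fatty acid synthesis, followed in CD11b+ brain cells of mice that differ in an Alzheimer's disease transgene, in Nlrp3 and in age. They were chosen by name from the table of raw counts, which lists 53801 genes. All 33 were found, and all 33 passed the filter on low counts. The sterol branch has 19 of them, from the first steps of the mevalonate pathway to cholesterol. The fatty acid branch has 8, from the supply of cytosolic acetyl-CoA to chain elongation and desaturation. The remaining 6 sense sterols, switch the synthesis genes on or carry cholesterol inside the cell.

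The study profiled 62 RNA-seq libraries of CD11b+ cells, a fraction that the study's title names as microglia, the resident macrophages of the brain. The mice were wild type (WT), lacked Nlrp3 (NLRP3-/-, labelled NLRP3), carried APP/PS1 (labelled APPPS1), or carried APP/PS1 and lacked Nlrp3 (labelled APPPS1_NLRP3). Nlrp3 encodes the sensor of an inflammasome, and APP/PS1 mice carry transgenes for a mutant amyloid precursor protein and presenilin 1 and form amyloid plaques. Each genotype was sampled at 4, 6 and 12 months. A further set of 12-month libraries of each genotype carries the tag Mxo4, which the labels do not spell out, and it is treated here as a separate set of 4 groups. The 16 groups hold 3 to 5 libraries each. The promoter and the line of the transgenes are not given in the sources used here, nor is the way Nlrp3 was inactivated.

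Cholesterol is built from acetyl-CoA through mevalonate, isoprenoid diphosphates, squalene and lanosterol, and most enzymes of this route are switched on together by the transcription factor SREBP-2. SREBP-1, its relative, acts more on fatty acid synthesis. Both factors are made as membrane proteins that SCAP escorts from the endoplasmic reticulum when sterols are low, while the INSIG proteins hold SCAP back when sterols are plentiful. In the brain, sterols are made locally because the blood-brain barrier keeps out plasma lipoproteins, and microglia also take up lipid from myelin and dying cells.

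Totals ranged from 11484943 to 27604393 counts in 59 of the 62 libraries, with a median of 18392142 over all. The 3 others were APPPS1_6m replicate 21 with 659 counts, NLRP3_12m replicate 45 with 1394435 and APPPS1_12m replicate 41 with 6187249. Replicate 21 was kept in the fitted model but left out of all levels below, so APPPS1_6m has 3 libraries with levels. Nlrp3 itself was at 60.4 to 271 CPM (counts scaled to the library size) in the 30 usable libraries with the gene intact and at 0 to 2.27 CPM in the 31 without it. By the level of Xist and of Y-linked genes, 42 libraries came from females and 19 from males. All libraries of WT_12m and APPPS1_12m were female, and all of NLRP3_12m and APPPS1_NLRP3_12m were male. At 6 months all usable WT and APPPS1 libraries were female, while NLRP3 had 3 females and 1 male and APPPS1_NLRP3 2 and 3. In the Mxo4 set females and males numbered 2 and 1 in WT, 1 and 3 in APPPS1, 1 and 2 in NLRP3 and 2 and 1 in APPPS1_NLRP3. The summed level of 8 microglia markers was between 30259 and 44415 CPM in every usable library. The library labelled APPPS1_12m_Mxo4 replicate 56 stood apart from the other 3 of its group in many of the genes below. The labels do not say whether libraries of a group came from separate animals, so a p-value here reflects the spread between libraries alone, and that spread may be technical.

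The promoter sequences of members that were called most often are shown here, as most enzymes of the cholesterol route are known targets of SREBP-2. The activity of SREBP was not measured. Of the 33 members, 26 matched a promoter window in RefSeq (GRCm38.p6), 250 bases before to 50 after the start, with 34 windows in all. The windows were searched on both strands for TCACNCCAC, the core of a sterol regulatory element, which SREBP binds, and for CCAAT, the box bound by NF-Y. CCAAT was found in 22 of the 34 member windows (21 of 26 members), against 12289 of all 32851 windows (37.4%). It was in 5 of the 6 matched members called in at least 4 of the 8 transgene comparisons described below, in 8 of 9 called in 1 to 3, and in 8 of 11 called in none, such as Mvk, Mvd and Ggps1. TCACNCCAC was found in 1 member, Hmgcs1, against 408 of all 32851 windows (1.24%). Only exact matches were counted, so a window without a match may still hold a variant of the element. The sequences below are the 250 bases before the start of 5 of the 9 members called in at least 4 comparisons. Of the other 4, Fdps, Fdft1 and Scd2 matched no window, and the single window of Acaca lies inside the gene, holds neither motif and is not shown. Capitals mark both motifs, and ATTGG is CCAAT read on the other strand. The motifs do not overlap each other.
Hmgcs1 (chr13:119690101-119690350, plus strand): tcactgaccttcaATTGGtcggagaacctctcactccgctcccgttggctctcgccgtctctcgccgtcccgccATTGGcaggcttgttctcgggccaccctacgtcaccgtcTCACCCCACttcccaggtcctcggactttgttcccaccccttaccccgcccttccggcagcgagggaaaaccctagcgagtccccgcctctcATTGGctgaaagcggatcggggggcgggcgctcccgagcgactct
Cyp51 (chr5:4104698-4104947, minus strand): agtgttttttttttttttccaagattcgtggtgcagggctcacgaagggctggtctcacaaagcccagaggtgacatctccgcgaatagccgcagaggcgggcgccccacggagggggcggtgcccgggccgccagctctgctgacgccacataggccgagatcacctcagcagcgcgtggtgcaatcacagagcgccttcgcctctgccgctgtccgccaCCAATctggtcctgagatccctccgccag
Sc5d (chr9:42264301-42264550, minus strand): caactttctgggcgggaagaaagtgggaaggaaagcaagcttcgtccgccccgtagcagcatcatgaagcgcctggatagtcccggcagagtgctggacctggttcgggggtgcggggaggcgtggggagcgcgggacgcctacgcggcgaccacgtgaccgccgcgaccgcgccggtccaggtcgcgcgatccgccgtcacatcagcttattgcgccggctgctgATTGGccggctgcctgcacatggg
Srebf2 (chr15:82147019-82147268, plus strand): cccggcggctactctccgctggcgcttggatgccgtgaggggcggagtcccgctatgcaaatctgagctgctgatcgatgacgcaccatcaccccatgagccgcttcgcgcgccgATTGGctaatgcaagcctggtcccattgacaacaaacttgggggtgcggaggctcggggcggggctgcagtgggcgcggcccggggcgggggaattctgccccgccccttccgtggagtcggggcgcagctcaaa
Insig1 (chr5:28071162-28071411, plus strand): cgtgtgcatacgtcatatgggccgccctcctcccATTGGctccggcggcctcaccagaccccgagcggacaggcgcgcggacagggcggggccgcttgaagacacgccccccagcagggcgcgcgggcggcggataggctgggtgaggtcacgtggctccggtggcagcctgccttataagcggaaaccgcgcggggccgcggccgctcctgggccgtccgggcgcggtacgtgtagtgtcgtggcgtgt
Counted from 0 at the annotated start, the first base of TCACNCCAC in Hmgcs1 was at -137. CCAAT boxes in that window began at -237, -176 and -45, and a further box lay past the start. The single CCAAT box began at -29 in Cyp51, at -24 in Sc5d, at -135 in Srebf2 and at -216 in Insig1. A match describes these letters only.

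Levels differed widely among the members. Per kilobase of exon and averaged over the 16 group means, Acly was highest at 44.8 CPM per kilobase, followed by Scd2 at 36.3 and Fads1 at 31.1, all of the fatty acid branch. The highest of the sterol branch was Ebp at 22.2 CPM per kilobase. Lss at 0.994 and Elovl6 at 0.317 CPM per kilobase were the lowest. The ratio of the highest to the lowest group mean was 7.61 for Acaca, 6.45 for Scd1, 4.74 for Fads2 and 4.26 for Elovl6. Of the sterol branch and the regulators it was largest in Stard4 (2.89), Cyp51 (2.82) and Insig1 (2.76), and it was 1.24 in Scap, 1.24 in Ggps1 and 1.25 in Insig2.

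The first comparison asks how the members differ between mice with and without the APP/PS1 transgenes, at each age and with or without Nlrp3. Differences are on the log2 scale from edgeR's quasi-likelihood test, given ± SE, with p-values adjusted by the Benjamini-Hochberg method over all 19865 genes tested, and a gene is called at an adjusted p under 0.05. In mice with Nlrp3, 18 of the 33 members rose with the transgenes at 12 months and 2 fell, where 11.1% of all genes rose and 6.99% fell. At 6 months 7 members rose and none fell (2.08% and 0.987% of all genes), and in the Mxo4 set 12 rose and none fell (3.44% and 1.67%). In mice without Nlrp3, 8 members rose at 6 months (6.19% of all genes, with 1.96% lower), 12 at 12 months (5.56% and 3.17%) and 12 in the Mxo4 set (3.56% and 1.63%), and none fell. The first number in the titles recurs across groups and is not explained by the labels. With it as a further term, 1 member was called at 6 months with Nlrp3 (Acaca), 14 at 12 months and 6 in the Mxo4 set, and without Nlrp3 8, 10 and 11. The calls it ended were those of Fdps, Fdft1, Cyp51, Sc5d, Srebf2 and Scd2 at 6 months with Nlrp3 (adjusted p from 0.127 to 0.410). At 12 months with Nlrp3 they were Acat2, Pmvk, Nsdhl, Fasn, Scd2 and Fads1 (0.0587 to 0.223), and in the Mxo4 set with Nlrp3 Hmgcs1, Pmvk, Idi1, Cyp51, Srebf1 and Scd2 (0.0726 to 0.144). Without Nlrp3 they were Idi1 and Scd2 at 12 months (0.0570 and 0.107) and Stard4 in the Mxo4 set (0.105). Over the 8 comparisons, 9 members passed in at least 4, namely Hmgcs1, Fdps, Fdft1, Cyp51, Sc5d, Srebf2, Insig1, Acaca and Scd2. Of the 33 members 13 passed in none. The share of all genes tested that reached either count was not taken, so neither count shows how unusual the members are.

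In either direction, 3.07% of all genes were called for APPPS1 against WT at 6 months, 18.1% at 12 months and 5.1% in the Mxo4 set. For APPPS1_NLRP3 against NLRP3 these shares were 8.14%, 8.73% and 5.19%. At 4 months no member was called in either background by edgeR (0.0252% and 0.0101% of all genes called). With an unadjusted p under 0.05, 1 member was higher in APPPS1_4m and 3 in APPPS1_NLRP3_4m, and DESeq2 called 0 members in both. Of all 19865 genes, 516 and 902 passed that unadjusted threshold in either direction. In bulk RNA, fewer cells of a type and less RNA per cell cannot be told apart. Scaling by library totals in place of TMM factors shifted the median of all genes by -0.23 at 12 months, and the higher share of all calls then fell from 61.4% to 23.4%. In the other transgene comparisons the shift was -0.11 in the Mxo4 set with Nlrp3 and, without it, -0.18 at 6 and -0.12 at 12 months, with higher shares of 42.7%, 30.3% and 38.3% in place of 67.4%, 76.0% and 63.7%. Under that scaling 13 members were higher and 4 lower at 12 months in mice with Nlrp3, and 6 were higher and 1 lower at 6 months without it. Insig2 was the member called lower there, and at 12 months Insig2 and Scd1 joined Acat2 and Fads1. RLE factors and DESeq2 also called Insig2 lower at 6 months without Nlrp3 (-0.23 in both, adjusted p = 0.0476 and 0.0297), and DESeq2 called Scd1 lower at 12 months with Nlrp3 (-1.45, adjusted p = 0.0491). At 6 months without Nlrp3, RLE factors shifted the median of all genes by -0.11, with a higher share of 45.8% in place of 76.0%.

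**Figure D1:**
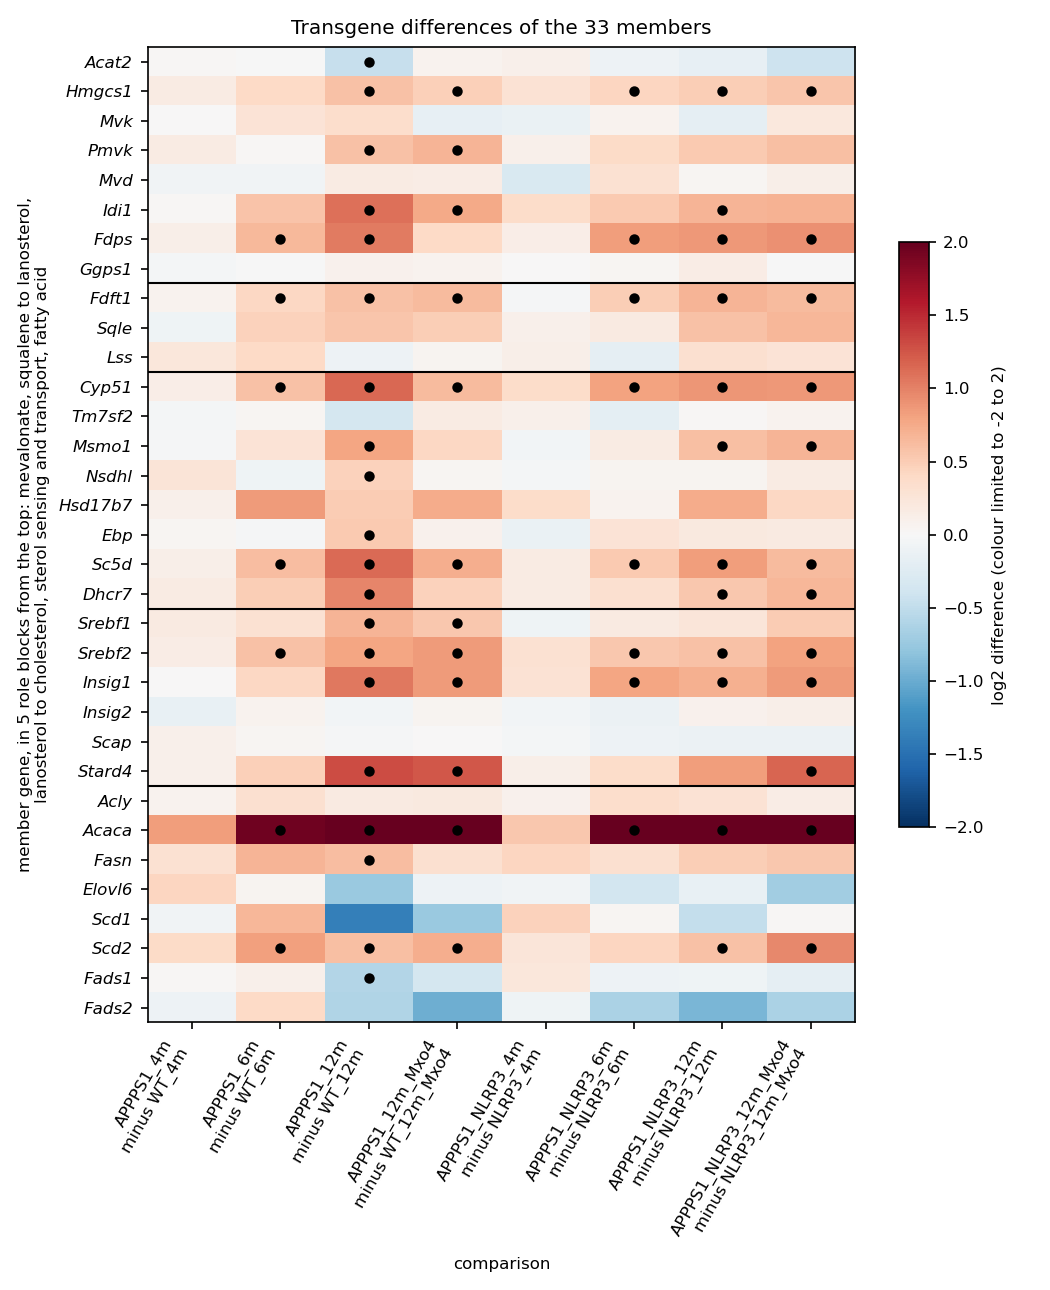
Log2 difference between mice with and without the APP/PS1 transgenes for each of the 33 members (vertical axis, grouped by branch) in the 8 comparisons (horizontal axis), with calls at an adjusted p under 0.05 marked. Acaca has the largest differences, up to 2.87. Called members are positive in both branches, except for Acat2 of the sterol branch and Fads1 of the fatty acid branch at 12 months with Nlrp3. Uncalled members of both branches have differences of both signs.

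A list of 5 proliferation genes moved with the same groups. Its summed level was 20.8 to 27 CPM in WT_12m and 59.1 to 106 CPM in APPPS1_12m, and 5 of 5 genes rose there. In mice without Nlrp3 it was 21.4 to 33.2 and 68.3 to 91.2 CPM, and 5 of 5 genes rose. Among the Mxo4 libraries, the one labelled APPPS1 replicate 56 had 23.3 CPM, below the WT libraries (24.7 to 30.6 CPM). Markers of other cell types moved as well. Of 8 endothelial markers, Pecam1 fell in 3 of the 8 comparisons and Ly6c1 in 1, and the list's median difference was below 0 in all 8. Its summed level at 12 months was 351 to 573 CPM in WT and 272 to 409.8 in APPPS1, and 100.2 to 218 and 99.1 to 195 CPM without Nlrp3. At 6 months it was 433 to 1199 and 271 to 582.1 CPM, and 496 to 1060.3 and 201 to 575 CPM without Nlrp3. Of 9 astrocyte markers, Gja1 and Atp1b2 fell in 2 comparisons each, Gjb6 and Slc4a4 in 1 each, and Gfap rose in 3. Of 8 microglia markers, Tmem119 fell in 3 comparisons, Sall1 in 2, and Aif1 rose in 1. The part of proliferating cells, or of these other cells, in the results below was not tested. Markers of monocytes and neutrophils were at 2168 CPM in APPPS1_12m replicate 38, against a median of 75.1 CPM in that group. Without this replicate 20 members were called at 12 months, as with it.

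In the mevalonate pathway, Hmgcs1 makes HMG-CoA, the compound that is reduced to mevalonate. Its gene (ENSMUSG00000093930, chr13:119690379-119708260) rose in 5 of the 8 comparisons. At 12 months it was at 47.7, 63.4 and 64.1 CPM in WT and at 79.6, 82, 86.5, 86.9 and 97 CPM in APPPS1. The groups did not overlap, and Hmgcs1 rose by 0.58 ± 0.13 (adjusted p = 7.04e-04). Without Nlrp3 it was at 50.8, 55.9, 56.7 and 73.1 CPM in NLRP3 and 77.6, 78.1, 87.8 and 97.4 CPM in APPPS1_NLRP3 at 12 months, a rise of 0.49 ± 0.13. At 6 months the values were 47.6, 51.9, 55.9, 57.4 and 60.4 CPM in WT, 72.1, 72.2 and 73.1 in APPPS1, 44.4, 55.5, 59.1 and 69.9 in NLRP3 and 74.2, 76, 78.1, 78.8 and 79.2 in APPPS1_NLRP3. No 6-month library with the transgenes was below any without them, and the difference was called only without Nlrp3 (0.43 ± 0.12, adjusted p = 0.0119; 0.40 ± 0.12, adjusted p = 0.064 with it). In the Mxo4 set the values were 48.7, 52.2 and 55.2 CPM in WT, 49.97, 71.7, 80.1 and 84.2 in APPPS1, 48.7, 52 and 54 in NLRP3 and 65.8, 76.9 and 88.6 in APPPS1_NLRP3. The lowest APPPS1 value, inside the WT range, is that of replicate 56. At 4 months Hmgcs1 was at 47, 51.3, 52.1 and 52.2 CPM in WT, 53, 53.2 and 62.7 in APPPS1, 46.3, 53.5, 54.5 and 61.4 in NLRP3 and 54.9, 60.8, 73.7 and 74.4 in APPPS1_NLRP3, and was not called in either background. The Mxo4 call with Nlrp3 was lost without any of replicates 57 to 62 (adjusted p up to 0.149), that without Nlrp3 without replicate 52 or 55 (up to 0.0748), and the 6-month call without replicate 27 or 32 (up to 0.147). The exons of Hmgcs1 share 557 bases with Gm48342 on the other strand, which had a median of 14.4 CPM.

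Fdps makes farnesyl diphosphate, the last intermediate shared by sterols and other isoprenoids. The gene (ENSMUSG00000059743, chr3:89093588-89101959) was low, at 1.78 CPM per kilobase on average. Its exons share 1124 bases with Gm43738 on the same strand, which had a median of 0 CPM. How reads on shared bases were counted is not given in the sources used here, so the level of Fdps is uncertain. In 12-month mice Fdps was at 5.7, 5.8 and 6.24 CPM in WT and 10.4, 10.4, 11.1, 12.1 and 17.8 CPM in APPPS1, a rise of 1.04 ± 0.19 (adjusted p = 4.53e-05). The 17.8 CPM came from replicate 41, the shallowest library of that group, and the other 4 were still all above WT. Without Nlrp3 the 12-month values were 5.06, 6.45, 7.26 and 7.3 CPM in NLRP3 and 10.5, 11.2, 11.3 and 13.6 CPM in APPPS1_NLRP3, a rise of 0.87 ± 0.19. At 6 months Fdps was at 3.99, 4.78, 5.27, 6.19 and 6.77 CPM in WT, 7.63, 8.63 and 9.2 in APPPS1, 5.71, 5.91, 6.63 and 6.72 in NLRP3 and 8.29, 9.14, 12.1, 12.8 and 13.1 in APPPS1_NLRP3, and both rises were called (0.65 ± 0.18 and 0.83 ± 0.17). The first was lost without any of replicates 17, 18, 19, 22, 23 and 24 (adjusted p up to 0.155). With the Mxo4 tag Fdps was at 5.2, 6.09 and 6.18 CPM in WT and 4.84, 8.22, 8.85 and 8.91 in APPPS1, with replicate 56 the lowest of all 7, and was not called (0.39 ± 0.19, adjusted p = 0.275). Without replicate 56 that difference was 0.57 (adjusted p = 0.0378). The Mxo4 libraries without Nlrp3 were at 4.63, 5.98 and 6.37 CPM in NLRP3 and 10.2, 10.5 and 11.2 in APPPS1_NLRP3, a rise of 0.91 ± 0.21. At 4 months the values were 4.78, 5.16, 5.77 and 7.02 CPM in WT, 5.58, 6 and 6.95 in APPPS1, 4.73, 5.14, 5.33 and 5.35 in NLRP3 and 4.45, 5.62, 5.82 and 6.67 in APPPS1_NLRP3, which overlap.

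The other mevalonate members moved less often. Idi1, which interconverts the C5 isoprenoid units, rose at 12 months with Nlrp3 (1.11 ± 0.21, adjusted p = 1.22e-04) and without it (0.68 ± 0.20), and in the Mxo4 set with Nlrp3 (0.76 ± 0.22). Its call without Nlrp3 was lost without replicate 42, 43, 44, 45 or 48 (adjusted p up to 0.124) and its Mxo4 call without replicate 57, 58, 59, 60 or 61 (up to 0.214). Pmvk, phosphomevalonate kinase, rose at 12 months in APPPS1 (0.59 ± 0.20, adjusted p = 0.0343) and in the Mxo4 set (0.68 ± 0.21), the latter not without replicate 57, 58, 59, 60 or 61 (adjusted p up to 0.411). Acat2, the cytosolic thiolase at the entry of the pathway, fell at 12 months (-0.47 ± 0.16, adjusted p = 0.0299), with group means of 18.2 ± 2.55 CPM in WT and 13 ± 1.43 CPM in APPPS1 (SD, n = 3 and 5). The calls of Pmvk and Acat2 at 12 months were both lost without WT_12m replicate 34 (adjusted p = 0.106 and 0.0874), APPPS1_12m replicate 35 (0.0832 and 0.111) or APPPS1_12m replicate 41 (0.0896 and 0.0509). That of Pmvk was also lost without WT_12m replicate 40 (0.179), and that of Acat2 without replicate 39 (0.136). Mvk, Mvd and Ggps1, the kinase, the decarboxylase and the geranylgeranyl diphosphate synthase, were called in none of the 8 comparisons, with 12-month differences of 0.36, 0.17 and 0.08 in APPPS1. The exons of Ggps1 share 257 bases with Arid4b on the other strand, which had a median of 69.7 CPM.

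Squalene synthase, encoded by Fdft1, commits farnesyl diphosphate to sterols. Fdft1 (ENSMUSG00000021273, chr14:63145150-63179578) was called in 6 of the 8 comparisons, but its exons share 774 bases with Ctsb on the other strand. Ctsb, a lysosomal protease gene, had a median of 4217 CPM and rose in the same 6 comparisons, by 0.81, 1.46 and 1.22 with Nlrp3 and by 1.33, 1.34 and 1.41 without it. Whether the counting used strand is not given in the sources used here, so reads of the 2 genes cannot be told apart and the values of Fdft1 are uncertain. At 12 months they were 57.8, 60.2 and 60.7 CPM in WT and 85.4, 87.6, 89, 92.1 and 94 in APPPS1, and the difference was 0.58 ± 0.12 (adjusted p = 1.54e-04). NLRP3 had 47.2, 59, 62.3 and 67.6 CPM and APPPS1_NLRP3 89.5, 92.8, 98 and 103 CPM at that age. At 6 months Fdft1 was at 46.7, 49.3, 52.9, 54 and 60.5 CPM in WT, 66.4, 69.4 and 76.1 in APPPS1, 54.5, 60.3, 61.9 and 68.2 in NLRP3 and 72, 81.2, 82.1, 93.5 and 102 in APPPS1_NLRP3. The transgene libraries were above the others in both pairs of groups at both ages. The Mxo4 libraries had Fdft1 at 56.1, 61.3 and 66.8 CPM in WT, 65.7, 93, 110.4 and 111 in APPPS1, 62.9, 66.4 and 72.1 in NLRP3 and 95.6, 105 and 111 in APPPS1_NLRP3. At 4 months they were 57.1, 58, 60.2 and 65.7 CPM in WT, 58.9, 65.4 and 65.8 in APPPS1, 57.4, 61.6, 67.4 and 67.9 in NLRP3 and 56.5, 61.1, 63.9 and 69.6 in APPPS1_NLRP3, with differences of 0.07 and -0.02. The 6-month call with Nlrp3 was lost without replicate 18, 20, 22, 23 or 24 (adjusted p up to 0.169). Sqle, squalene epoxidase, and Lss, lanosterol synthase, were called in none of the 8, with 12-month differences of 0.55 ± 0.25 and -0.10 ± 0.19 in APPPS1. On leaving out NLRP3_12m replicate 47, Sqle was called higher at 12 months without Nlrp3 (0.94, adjusted p = 0.0150).

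Between lanosterol and cholesterol, Cyp51 removes a methyl group from lanosterol. Cyp51 (ENSMUSG00000001467, chr5:4081145-4104746) was called in 6 of the 8 comparisons. The 12-month values of Cyp51 were 23, 29.3 and 30.2 CPM in WT and 47.4, 53.7, 54, 58.2 and 90.9 CPM in APPPS1, a rise of 1.15 ± 0.18 (adjusted p = 3.47e-06). The highest value was that of replicate 41, and the other 4 APPPS1 libraries were also above every WT library. Without Nlrp3 it was at 26.5, 28.3, 29.1 and 33.1 CPM in NLRP3 and 48.5, 52.9, 57 and 59.8 CPM in APPPS1_NLRP3, a rise of 0.88 ± 0.17 (adjusted p = 3.23e-04). At 6 months the values were 21, 22, 23.6, 23.6 and 24 CPM in WT, 30.6, 33.5 and 39.5 in APPPS1, 21.8, 22.4, 22.7 and 31.3 in NLRP3 and 34.1, 42.5, 42.6, 46 and 49.6 in APPPS1_NLRP3. Neither pair of groups overlapped, with rises of 0.59 ± 0.17 and 0.81 ± 0.16. The Mxo4 libraries had 23.8, 28.5 and 29.8 CPM in WT, 23.2, 37.7, 50.5 and 56.7 in APPPS1, 20.9, 24.9 and 25.3 in NLRP3 and 39.5, 42.5 and 49.3 in APPPS1_NLRP3, where the lowest APPPS1 value is again replicate 56. At 4 months Cyp51 was at 19.1, 20.03, 22.2 and 24.8 CPM in WT, 22.5, 23.8 and 24 in APPPS1, 17.5, 22.9, 24 and 27 in NLRP3 and 26.5, 28, 31.5 and 31.8 in APPPS1_NLRP3, and was not called. The 6-month call with Nlrp3 was lost without any single replicate from 16 to 24 other than 21 (adjusted p up to 0.223), and the Mxo4 call with Nlrp3 without replicate 57, 58, 60, 61 or 62 (up to 0.215). Its exons share 166 bases with Akap9 on the other strand, which had a median of 86.5 CPM.

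Sc5d introduces a double bond late in the route. The gene (ENSMUSG00000032018, chr9:42251595-42264256) rose in the same 6 comparisons, and its 12-month change in APPPS1 was 1.13 ± 0.14 (adjusted p = 7.89e-08). At 12 months it was at 30.3, 35.8 and 36 CPM in WT, 60.3, 67, 69.1, 74.2 and 96.3 in APPPS1, 35.6, 45.5, 49.8 and 51.8 in NLRP3 and 75.9, 78.7, 92.1 and 93.9 in APPPS1_NLRP3. At 6 months it was at 25.8, 29, 33.3, 34.7 and 38.3 CPM in WT, 39.4, 51.6 and 59.7 in APPPS1, 38.5, 42.9, 43.4 and 45.8 in NLRP3 and 51.8, 56.4, 65.7, 67.3 and 67.7 in APPPS1_NLRP3. At both ages every library with the transgenes was above every library of the group without them that it was compared with. In the Mxo4 set the values were 34.7, 35.8 and 37.5 CPM in WT, 43.2, 54.3, 69.1 and 69.8 in APPPS1, 40.3, 45.4 and 46.5 in NLRP3 and 66.2, 68.3 and 75.4 in APPPS1_NLRP3. Here replicate 56, the lowest of APPPS1, still lay above the WT range. At 4 months Sc5d was at 26.2, 28.6, 33.4 and 40.1 CPM in WT, 32.9, 33.5 and 36.6 in APPPS1, 35.2, 37, 37.3 and 45.5 in NLRP3 and 41.2, 41.2, 43.5 and 48.7 in APPPS1_NLRP3, which overlap. The 6-month call with Nlrp3 was lost without replicate 24 (adjusted p = 0.0923), and the Mxo4 call without Nlrp3 was lost without replicate 55 (0.0526).

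Of the other 6 members of this segment, 4 rose at 12 months in APPPS1. Msmo1, the methylsterol oxidase, rose by 0.78 ± 0.17 (adjusted p = 4.49e-04) from a mean of 64.7 ± 5.86 to 111 ± 46.4 CPM (SD, n = 3 and 5). Dhcr7, the 7-dehydrocholesterol reductase, rose by 0.98 ± 0.17 (adjusted p = 1.48e-05), Ebp, a sterol isomerase, by 0.53 ± 0.14 and Nsdhl, a sterol dehydrogenase, by 0.47 ± 0.17. Nsdhl was not called without APPPS1_12m replicate 41 (0.27, adjusted p = 0.240), nor without WT_12m replicate 34 or 40 or APPPS1_12m replicate 36. Without Nlrp3, Msmo1 and Dhcr7 also rose at 12 months (0.60 ± 0.16 and 0.53 ± 0.16) and in the Mxo4 set (0.67 ± 0.18 and 0.67 ± 0.18). The 12-month call of Dhcr7 without Nlrp3 was lost on leaving out any of replicates 42, 43, 47 and 48 (adjusted p up to 0.161). Both Mxo4 calls were lost without replicate 50, 52 or 55 (up to 0.116 for Msmo1 and 0.0596 for Dhcr7). In the Mxo4 set with Nlrp3 both were called higher only without replicate 56 (0.59, adjusted p = 0.0136 for Msmo1 and 0.56, adjusted p = 0.0241 for Dhcr7). Tm7sf2, a sterol reductase, and Hsd17b7, a 3-ketosterol reductase, were called in none of the 8 comparisons, with -0.36 ± 0.27 and 0.50 ± 0.30 at 12 months.

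Among the regulators, edgeR called Srebf2 and Insig1 higher with the transgenes in 6 and 5 of the 8 comparisons, and Scap and Insig2 in none. Srebf2 (ENSMUSG00000022463, chr15:82147181-82205379) encodes SREBP-2. In 12-month mice Srebf2 was at 28.6, 30.5 and 41.7 CPM in WT and 38.8, 56.6, 62.6, 72.3 and 75.6 CPM in APPPS1, a rise of 0.79 ± 0.17 (adjusted p = 6.27e-04), and only replicate 41 at 38.8 CPM lay within the WT range. Without Nlrp3 the values were 34.7, 39.6, 50.8 and 65.9 CPM in NLRP3 and 60.6, 70.7, 70.8 and 71.6 CPM in APPPS1_NLRP3, where NLRP3 replicate 47 overlapped the transgene group. That rise was 0.58 ± 0.17 (adjusted p = 0.0179) and was not called without replicate 42, 43 or 48 (adjusted p up to 0.125). At 6 months Srebf2 was at 32.3, 33.2, 35.2, 37.5 and 43.7 CPM in WT, 46.5, 53 and 63.3 in APPPS1, 31.4, 37.7, 39.2 and 43.1 in NLRP3 and 46.2, 47.7, 57.3, 58.6 and 60.8 in APPPS1_NLRP3, rises of 0.58 ± 0.16 and 0.55 ± 0.16. With the Mxo4 tag Srebf2 was at 27.1, 33.9 and 37.5 CPM in WT, 33.7, 62.2, 65.8 and 81.6 in APPPS1, 28.7, 33.2 and 36.8 in NLRP3 and 52, 55.4 and 56.1 in APPPS1_NLRP3, rises of 0.86 ± 0.18 and 0.80 ± 0.19. Both 6-month pairs and the Mxo4 pair without Nlrp3 were fully separated, and replicate 56 again fell inside the WT range. At 4 months the values were 25.2, 26.2, 34.4 and 34.7 CPM in WT, 30.3, 35.7 and 37.3 in APPPS1, 33.5, 34.1, 35.8 and 38.5 in NLRP3 and 38.4, 40.2, 46.4 and 49.6 in APPPS1_NLRP3. The 6-month call with Nlrp3 was lost without replicate 16, 17, 18, 20, 22, 23 or 24 (adjusted p up to 0.187) and that without Nlrp3 without replicate 26, 28, 31 or 32 (up to 0.0734).

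Insig1 (ENSMUSG00000045294, chr5:28071363-28078662), which is itself a target of SREBP, rose in 5 of the 8 comparisons. The 12-month values of Insig1 were 31.8, 40.7 and 41.3 CPM in WT and 67.5, 72.9, 77.3, 80.3 and 105 CPM in APPPS1, a rise of 1.06 ± 0.16 (adjusted p = 3.07e-06) with no overlap. Without Nlrp3 it was at 36.8, 36.8, 36.9 and 55.2 CPM in NLRP3 and 53.6, 61.8, 64.1 and 76.8 CPM in APPPS1_NLRP3, where the value of 55.2 CPM belonged to replicate 45, the shallow library. At 6 months Insig1 was at 31.2, 33.5, 33.8, 35.2 and 40.9 CPM in WT, 40.7, 42.9 and 55.4 in APPPS1, 29.8, 32.6, 33.1 and 35.2 in NLRP3 and 47.1, 47.7, 50.4, 63.9 and 72.9 in APPPS1_NLRP3. The rise at 6 months was called without Nlrp3 (0.79 ± 0.15, adjusted p = 1.77e-04), and with it the difference was 0.42 ± 0.16 (adjusted p = 0.134). The Mxo4 libraries had Insig1 at 35.6, 36.4 and 39.5 CPM in WT, 39.4, 70.5, 74.6 and 87.9 in APPPS1, 32.7, 32.9 and 33.7 in NLRP3 and 47.1, 62 and 65.4 in APPPS1_NLRP3, rises of 0.85 ± 0.17 and 0.85 ± 0.18. At 4 months Insig1 was at 30.2, 32.9, 33.1 and 37.5 CPM in WT, 30.2, 35.5 and 36.7 in APPPS1, 25.7, 28.3, 30.6 and 32.5 in NLRP3 and 28.8, 36.2, 38.7 and 39.3 in APPPS1_NLRP3, and the groups overlapped.

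**Figure D2:**
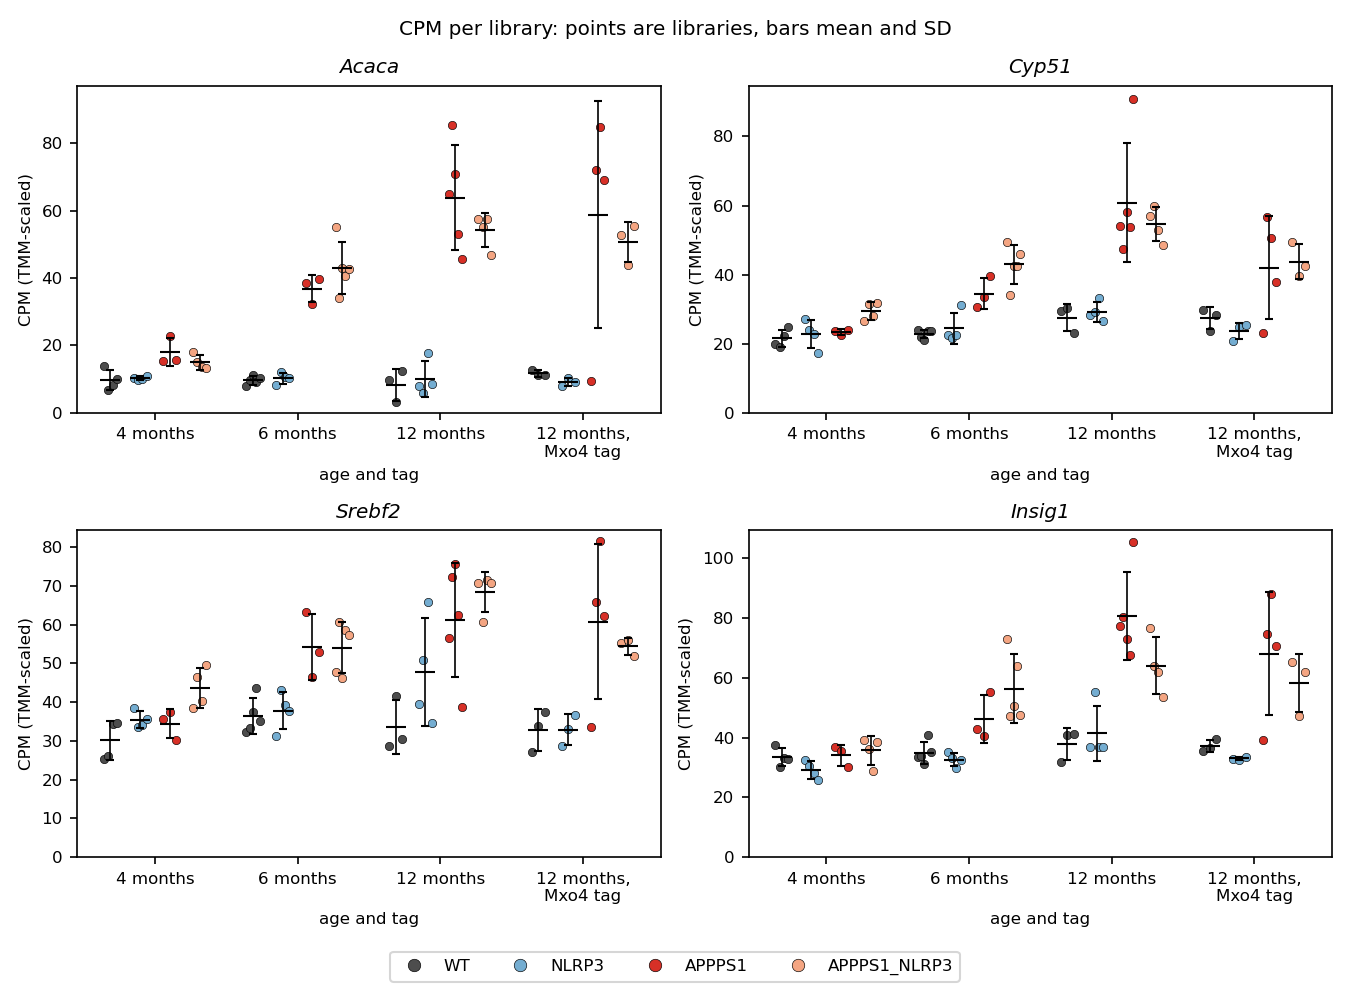
CPM (vertical axis) of Acaca, Cyp51, Srebf2 and Insig1 in every usable library, by group (horizontal axis), with group means. From 6 months on Acaca and Cyp51 are higher in every library with the transgenes than in the group without them, except in the Mxo4 set, where APPPS1 replicate 56 (9.42 CPM of Acaca) lies with the WT libraries.

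Insig2 encodes the second INSIG protein and had group means that differed little. At 12 months Insig2 was at 62.2, 66.9 and 68.8 CPM in WT, 55, 59.8, 61.7, 66.4 and 70.8 in APPPS1, 61.9, 63.6, 64.7 and 68.3 in NLRP3 and 62.6, 67.1, 67.5 and 77.7 in APPPS1_NLRP3. The 4-month values were 55.6, 64, 66.6 and 69.5, 53.4, 54.6 and 63.3, 61.8, 64.7, 65.8 and 66.7 and 58.2, 61, 61.7 and 66.9 CPM in the same order of groups, and the 6-month values 55, 58.4, 63, 67 and 67.6, 58.4, 67.1 and 72.6, 64.9, 67.7, 73.8 and 74.4 and 57.6, 60.3, 62.5, 70.4 and 74.3 CPM. In the Mxo4 set they were 54.6, 55.9 and 57.5, 51.6, 58.8, 60.9 and 61.2, 57, 60.3 and 63.6 and 64.7, 65.7 and 69.4 CPM. The 12-month difference between APPPS1 and WT was -0.06, with a 95% interval of -0.23 to 0.11, against 0.74 to 1.38 for Insig1. At 6 months without Nlrp3 the difference was -0.12 by edgeR with TMM factors (adjusted p = 0.42), and the calls of a lower level under other scalings are given above.

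Scap, the escort of both SREBPs, was likewise called in none of the 8 comparisons. At 12 months it was at 38.6, 46.8 and 53.5 CPM in WT, 27.6, 42.5, 48.2, 50.7 and 64.3 in APPPS1, 44.8, 48.3, 50.8 and 53.5 in NLRP3 and 38.7, 44.6, 45.8 and 48.5 in APPPS1_NLRP3, where the lowest APPPS1 value is replicate 41. The 4-month values were 43.7, 49.3, 50.7 and 57.6, 50.3, 54.8 and 60.2, 50.2, 53.1, 53.3 and 55 and 47.5, 48, 54.9 and 55.8 CPM in that order of groups, and the 6-month values 44.2, 46.6, 46.9, 48.3 and 49.3, 44, 46.7 and 54.2, 47.2, 47.6, 48.9 and 51.4 and 41.9, 43.1, 43.3, 45.8 and 51.5 CPM. In the Mxo4 set Scap was at 47.3, 48.3 and 61.5, 50.3, 52.6, 53.9 and 56.5, 52.3, 52.8 and 54.3 and 44.3, 49.1 and 49.2 CPM. The interval of its 12-month difference in APPPS1 was -0.25 to 0.21. Its exons share 985 bases with a transcript on the other strand, 5830462I19Rik, which had a median of 13.1 CPM.

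Srebf1 (ENSMUSG00000020538, chr11:60199089-60222581), which encodes SREBP-1, rose only in mice with Nlrp3 by the test, at 12 months and in the Mxo4 set. In 12-month mice Srebf1 was at 19.7, 28.8 and 33.7 CPM in WT and 39, 39.9, 47.5, 48 and 48.5 CPM in APPPS1, which do not overlap (0.67 ± 0.15, adjusted p = 8.92e-04). NLRP3 had 29.9, 32.7, 35.9 and 36.3 CPM and APPPS1_NLRP3 29, 33.3, 44.9 and 49.5 CPM, which do (0.24 ± 0.15, adjusted p = 0.346). The test of the difference between these 2 effects gave -0.43 ± 0.21 (adjusted p = 0.493), so they were not shown to differ. The 12-month groups with Nlrp3 were all female and those without it all male. Srebf1 lies 632 kb from Nlrp3 on chromosome 11. At 6 months it was at 27.5, 28.6, 28.7, 28.8 and 29 CPM in WT, 29.6, 33.6 and 42.6 in APPPS1, 29.1, 31.4, 32.4 and 35 in NLRP3 and 29.7, 29.8, 34, 41.4 and 44.3 in APPPS1_NLRP3. With the Mxo4 tag Srebf1 was at 25.6, 28.2 and 29.3 CPM in WT, 29, 39.6, 47.1 and 47.7 in APPPS1, 25.3, 27 and 28.3 in NLRP3 and 33.5, 35.9 and 42.7 in APPPS1_NLRP3, and at 4 months 27, 27.8, 28.5 and 33, 26.7, 35.9 and 37.4, 28, 31.7, 32.2 and 34 and 27.3, 28.7, 29.9 and 33.2 CPM. The Mxo4 rise in APPPS1 (0.54 ± 0.16) was lost on leaving out any of replicates 57, 58, 60, 61 and 62 (adjusted p up to 0.144). Stard4, a carrier of cholesterol between membranes, rose at 12 months in APPPS1 (1.30 ± 0.32, adjusted p = 0.00267) and in both Mxo4 pairs (1.24 ± 0.33 and 1.16 ± 0.35). These Mxo4 calls were lost without replicate 57, 58, 60 or 61 (adjusted p up to 0.143) and without replicate 50, 51, 52, 53 or 55 (up to 0.163).

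In the fatty acid branch, Acaca encodes acetyl-CoA carboxylase 1, which makes malonyl-CoA, the first committed step. Acaca (ENSMUSG00000020532, chr11:84129672-84401651) had the largest difference of the 33 members in each of the 6 comparisons in which it was called. The 12-month values of Acaca were 3.14, 9.67 and 12.4 CPM in WT and 45.6, 53, 64.8, 70.7 and 85.2 CPM in APPPS1, a rise of 2.87 ± 0.34 (adjusted p = 2.57e-08), or 7.33-fold. Without Nlrp3 it was at 5.81, 7.92, 8.61 and 17.7 CPM in NLRP3 and 46.8, 55.1, 57.4 and 57.6 CPM in APPPS1_NLRP3, a rise of 2.42 ± 0.32 (adjusted p = 2.93e-07). The lowest transgene value, 45.6 CPM, was above the highest value without transgenes at this age, 17.7 CPM. At 6 months Acaca was at 7.95, 9.05, 9.62, 10.4 and 11.3 CPM in WT, 32.3, 38.6 and 39.7 in APPPS1, 8.17, 10.5, 10.5 and 12 in NLRP3 and 34, 40.5, 42.7, 43 and 55.2 in APPPS1_NLRP3, rises of 1.95 ± 0.29 and 2.10 ± 0.29. The Mxo4 libraries had Acaca at 11.1, 11.2 and 12.8 CPM in WT, 9.42, 69, 72 and 84.8 in APPPS1, 8.06, 9.26 and 10.3 in NLRP3 and 44, 52.8 and 55.3 in APPPS1_NLRP3. Replicate 56, at 9.42 CPM, lay below all WT libraries of that set, and the other 3 were at 69 CPM or more. At 4 months the values were 6.76, 8.3, 10.2 and 13.9 CPM in WT, 15.5, 15.7 and 22.8 in APPPS1, 9.63, 10.03, 10.4 and 11 in NLRP3 and 13.2, 13.6, 15.1 and 18.1 in APPPS1_NLRP3. These 4-month groups did not overlap, but the differences of 0.83 ± 0.32 and 0.54 ± 0.30 were not called (adjusted p = 1 in both). Among libraries of second title number 1 or 2 alone, the 12-month rise was 2.50 and 3.14 with Nlrp3 and 2.10 and 2.86 without it. WT_12m has 1 library of second number 1 and NLRP3_12m has 1 of second number 2, so 2.50 and 2.86 rest on a single control library, assumed to vary like the other groups. Acaca was the only member called in all 6 comparisons under every leave-out of a single library.

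Scd2 and Scd1 encode stearoyl-CoA desaturases, which make monounsaturated fatty acids. Scd2 (ENSMUSG00000025203, chr19:44293674-44306864) was the more abundant of the pair, at 36.3 CPM per kilobase against 1.35 for Scd1. At 12 months it was at 135, 136 and 153 CPM in WT and 174, 211, 217, 255 and 257 CPM in APPPS1, a rise of 0.61 ± 0.20 (adjusted p = 0.0248) with no overlap. Without Nlrp3 it was at 142, 209, 211 and 376 CPM in NLRP3 and 263, 339, 356 and 399.6 CPM in APPPS1_NLRP3, where NLRP3 replicate 47 at 376 CPM overlapped the transgene group (0.58 ± 0.19, adjusted p = 0.043). This call was lost on leaving out any of replicates 42, 44, 45, 46, 48 and 49 (adjusted p up to 0.208). At 6 months Scd2 was at 129, 139, 144, 154 and 154 CPM in WT, 240.1, 241 and 292 in APPPS1, 164, 179, 179.8 and 186 in NLRP3 and 178, 226, 237, 261 and 279 in APPPS1_NLRP3, and the rise was called with Nlrp3 only (0.82 ± 0.19; 0.42 ± 0.18 without). The difference of these effects was not called (-0.40 ± 0.26, adjusted p = 0.771). In the Mxo4 set it was at 107, 139 and 148 CPM in WT, 122, 219.8, 252 and 292 in APPPS1, 93.4, 125 and 157 in NLRP3 and 209, 212 and 282 in APPPS1_NLRP3, rises of 0.72 ± 0.20 and 0.96 ± 0.22. At 4 months the values were 125, 142, 153 and 161 CPM in WT, 178, 188 and 214 in APPPS1, 142, 157, 175 and 212 in NLRP3 and 181, 188, 209 and 225 in APPPS1_NLRP3. The 12-month call with Nlrp3 was lost without WT_12m replicate 34 or 40 (adjusted p up to 0.129), the 6-month call without replicate 22 (0.0619), and the Mxo4 calls without replicate 57, 58, 59, 61 or 62 (up to 0.192) and without replicate 50 (0.0517).

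Scd1 was lower and more variable. In 12-month mice Scd1 was at 3.52, 6.65 and 8.63 CPM in WT and 1.08, 1.85, 2.07, 3.5 and 4.45 CPM in APPPS1, a difference of -1.37 ± 0.54 (adjusted p = 0.0682). NLRP3 had 5.36, 8.72, 16 and 30.4 CPM and APPPS1_NLRP3 2.73, 4.7, 14.4 and 21.2 CPM, a spread of several-fold within each group. At 4 months Scd1 was at 3.71, 3.9, 4.16 and 6.73 CPM in WT, 1.92, 5.72 and 6.38 in APPPS1, 5.22, 5.76, 6.03 and 16.1 in NLRP3 and 6.56, 10.9, 12.8 and 12.9 in APPPS1_NLRP3. At 6 months the values were 3.67, 5.05, 5.94, 6.23 and 8.58 CPM in WT, 6.48, 7.59 and 14.5 in APPPS1, 5.54, 6.37, 9.2 and 9.56 in NLRP3 and 2.57, 4.61, 4.8, 8.18 and 17.7 in APPPS1_NLRP3. With the Mxo4 tag Scd1 was at 3.5, 3.53 and 4.91, 1.41, 1.77, 3 and 3.19, 2.08, 3.11 and 3.97 and 0.888, 3.59 and 4.03 CPM in that order of groups. By edgeR, Scd1 was called in none of the 8 transgene comparisons, and its differences were of both signs. Without APPPS1_12m replicate 37 the 12-month difference was -1.60 (adjusted p = 0.0371), and without WT_12m replicate 40 it was -1.76 (adjusted p = 0.0370).

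Fasn, the fatty acid synthase, rose at 12 months in APPPS1 by 0.62 ± 0.22 (adjusted p = 0.0352) and was called in no other transgene comparison. The 12-month values of Fasn were 13.8, 17.4 and 21.9 CPM in WT, 19.1, 24.7, 31.6, 31.6 and 39 in APPPS1, 14.3, 20.8, 24 and 43.2 in NLRP3 and 27.3, 33.1, 35.5 and 39 in APPPS1_NLRP3. The call in APPPS1 was lost without WT_12m replicate 34 or 40 or APPPS1_12m replicate 37 or 41 (adjusted p = 0.181, 0.168, 0.0755 and 0.0521). The call without Nlrp3 was gained without replicate 47, whose 43.2 CPM is the highest of the NLRP3 group (0.90, adjusted p = 0.00369). At 6 months Fasn was at 18, 20.1, 24, 24.1 and 24.9 CPM in WT, 30.8, 31.7 and 43.7 in APPPS1, 20.3, 21.1, 24 and 25.5 in NLRP3 and 24.5, 26.7, 27, 29.6 and 32.7 in APPPS1_NLRP3. The Mxo4 libraries had Fasn at 17.9, 27.8 and 32.3, 18.5, 35.5, 40.4 and 41.9, 16.3, 19.1 and 19.6 and 23.1, 24.6 and 26.8 CPM in that order, and at 4 months 18.2, 22.3, 23.8 and 25.6, 22.1, 29.3 and 34.8, 19.5, 20.1, 20.6 and 25.2 and 23.6, 25.9, 28.7 and 37.6 CPM.

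The other 4 members of the branch included the only fatty acid gene that fell. Fads1, the delta-5 desaturase of polyunsaturated fatty acids, was at 124, 144 and 145 CPM in WT_12m and 59, 78.3, 93.5, 113 and 123 CPM in APPPS1_12m and fell (-0.59 ± 0.15, adjusted p = 0.00401). All 5 APPPS1 libraries were below all 3 WT libraries. Without Nlrp3 the 12-month difference of Fads1 was -0.09 ± 0.15 (adjusted p = 0.808), and the test of the difference between both effects gave 0.50 ± 0.22 (adjusted p = 0.412). These groups differ in sex as well as in Nlrp3. Acly, which makes cytosolic acetyl-CoA from citrate, was not called in any of the 8, with 0.18 ± 0.13 at 12 months in APPPS1. Without replicate 41, which had 151 CPM of Acly against 271 to 307 CPM in the other 4, that difference was 0.34 (adjusted p = 0.0341). At 6 months without Nlrp3, Acly was called higher on leaving out replicate 26, 28 or 29 (adjusted p from 0.0395 to 0.0494). Fads2, the delta-6 desaturase, and Elovl6, an elongase, were not called, with -0.60 ± 0.43 and -0.74 ± 0.50 at 12 months. Without replicate 56 Fads2 was called lower in the Mxo4 set (-1.60, adjusted p = 0.0168). At 12 months without Nlrp3 it was called lower on leaving out APPPS1_NLRP3_12m replicate 49 (-1.36, adjusted p = 0.0435).

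**Figure D3:**
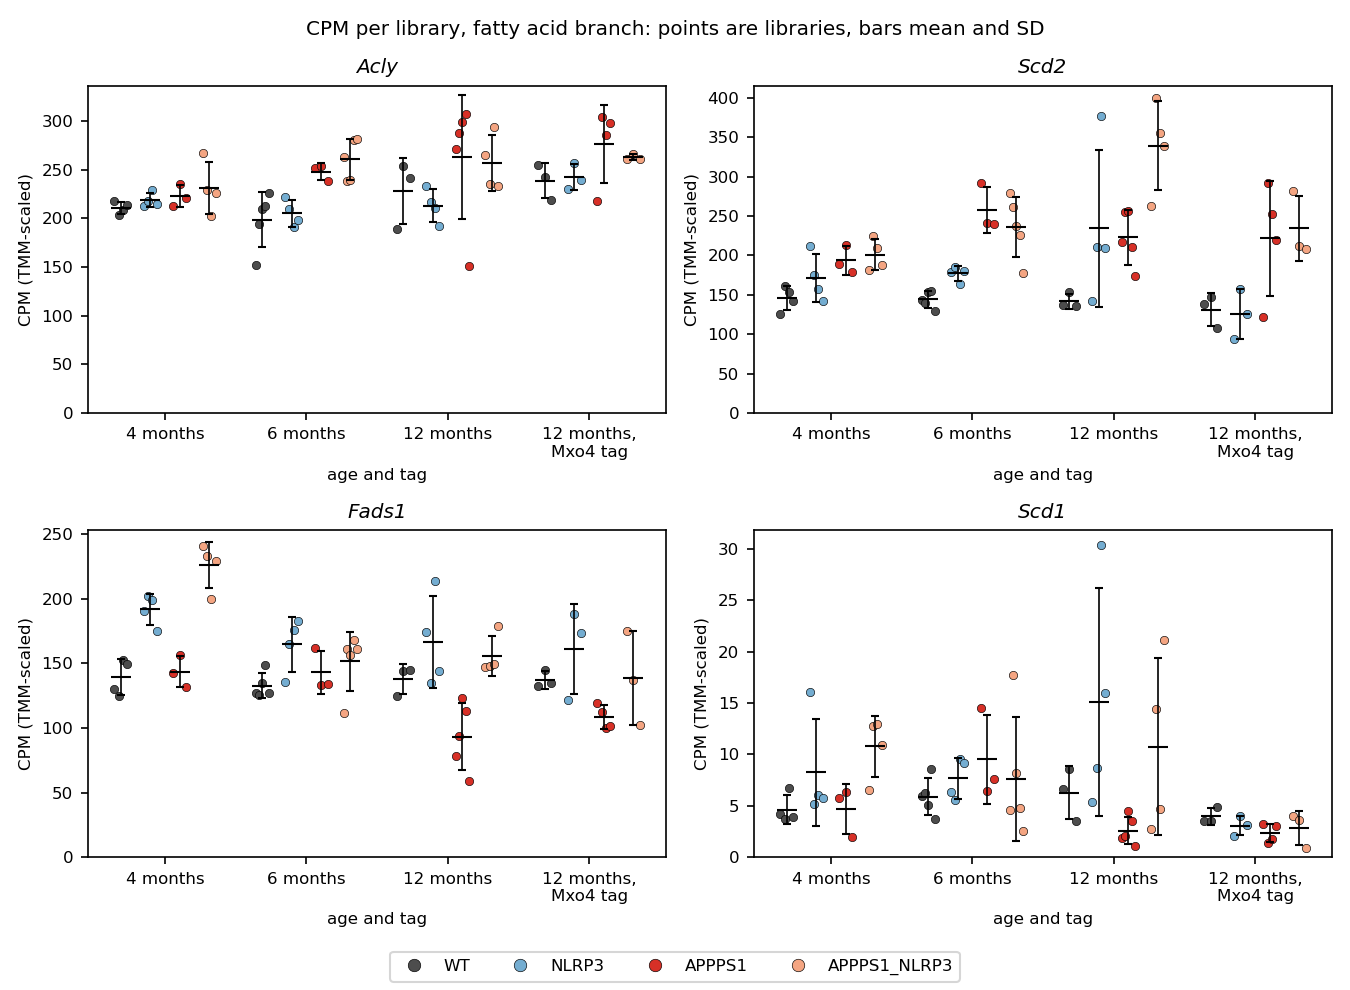
CPM (vertical axis) of Acly, Scd2, Fads1 and Scd1 in every usable library, by group (horizontal axis), with group means. Scd2 was called higher in 5 of the 8 transgene comparisons, Fads1 is lowest in APPPS1_12m, and NLRP3_12m replicate 47 has the highest Scd1 value, 30.4 CPM.

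The branches are set side by side here, and no test compared them. The shares of all genes called in each comparison are those given above. At 12 months in APPPS1, 11 of 19 sterol members rose and 1 fell, 4 of 6 regulators rose, and 3 of 8 fatty acid members rose and 1 fell. The median difference was 0.55 for the sterol branch, 0.73 for the regulators and -0.21 for the fatty acid branch, beside -0.07 for all genes tested. Without Nlrp3 at 12 months 8 sterol members, 2 regulators and 2 fatty acid members rose, with medians of 0.52, 0.41 and 0.10 (all genes -0.05). At 6 months the fatty acid median in APPPS1 was 0.53, above that of the sterol branch at 0.40 and of the regulators at 0.36 (all genes -0.03), and 4, 1 and 2 members of sterol branch, regulators and fatty acid branch rose. All 8 fatty acid members had differences above 0 there, and 14 of 19 sterol members. Without Nlrp3 at 6 months the medians were 0.27, 0.27 and 0.18 (all genes -0.04), with 5, 2 and 1 members up. With RLE factors these medians were lower, at 0.15, 0.17 and 0.08 (all genes -0.15). Then 4, 1 and 1 members were up, and 1 regulator was down. The medians of the Mxo4 set were 0.42, 0.70 and 0.04 in APPPS1 (all genes -0.02; 6, 4 and 2 members up) and 0.56, 0.65 and 0.08 in APPPS1_NLRP3 (all genes -0.05; 7, 3 and 2 members up). RLE factors left 2, 4 and 1 members up in APPPS1 of the Mxo4 set, with medians of 0.38, 0.66 and 0.02. Scaled by library totals, the fatty acid median turned to -0.02 at 12 months without Nlrp3 and to -0.06 in the Mxo4 set with it.

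A value for each branch in each library needs no fitted model, but it rests on the TMM factors. Other factors were not tried for it, and library totals shifted the median of all genes by -0.23 at 12 months with Nlrp3. The sterol value is a median over 19 members and the fatty acid value over 8, so the latter is less steady. The value of a branch in a library is the median, over its members, of log2(CPM + 0.5) minus that member's mean over groups. For the sterol branch it ran from 0.19 to 0.66 in APPPS1_12m and from -0.22 to 0.03 in WT_12m, which do not overlap. APPPS1_NLRP3_12m ran from 0.35 to 0.46 and NLRP3_12m from -0.31 to 0.17, and these ranges do not overlap either. For the fatty acid branch the ranges overlapped, at -0.37 to 0.22 in APPPS1_12m and -0.50 to -0.04 in WT_12m, and at 0.10 to 0.69 in APPPS1_NLRP3_12m and -0.27 to 0.88 in NLRP3_12m. At 6 months both branches were separate with Nlrp3, the sterol branch at 0.07 to 0.18 in APPPS1 against -0.32 to -0.01 in WT, and the fatty acid branch at 0.30 to 0.73 against -0.33 to -0.01. Without Nlrp3 at 6 months the sterol ranges were separate (0.05 to 0.34 against -0.17 to -0.02) and the fatty acid ranges overlapped (0.05 to 0.46 against -0.06 to 0.13). Among the Mxo4 libraries with Nlrp3, the ranges overlapped in the sterol branch (-0.21 to 0.35 against -0.30 to -0.13) and in the fatty acid branch (-0.36 to 0.09 against -0.47 to -0.15). Those without Nlrp3 did not overlap in either, at 0.24 to 0.38 against -0.15 to -0.13 and, by a narrow margin, at -0.31 to 0.12 against -0.80 to -0.32. At 4 months the sterol ranges were -0.25 to -0.18 in APPPS1 and -0.27 to -0.19 in WT, and the ranges of both branches overlapped in both backgrounds. Within APPPS1_12m, replicate 41 had the highest sterol value, 0.66, and the lowest fatty acid value, -0.37.

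**Figure D4:**
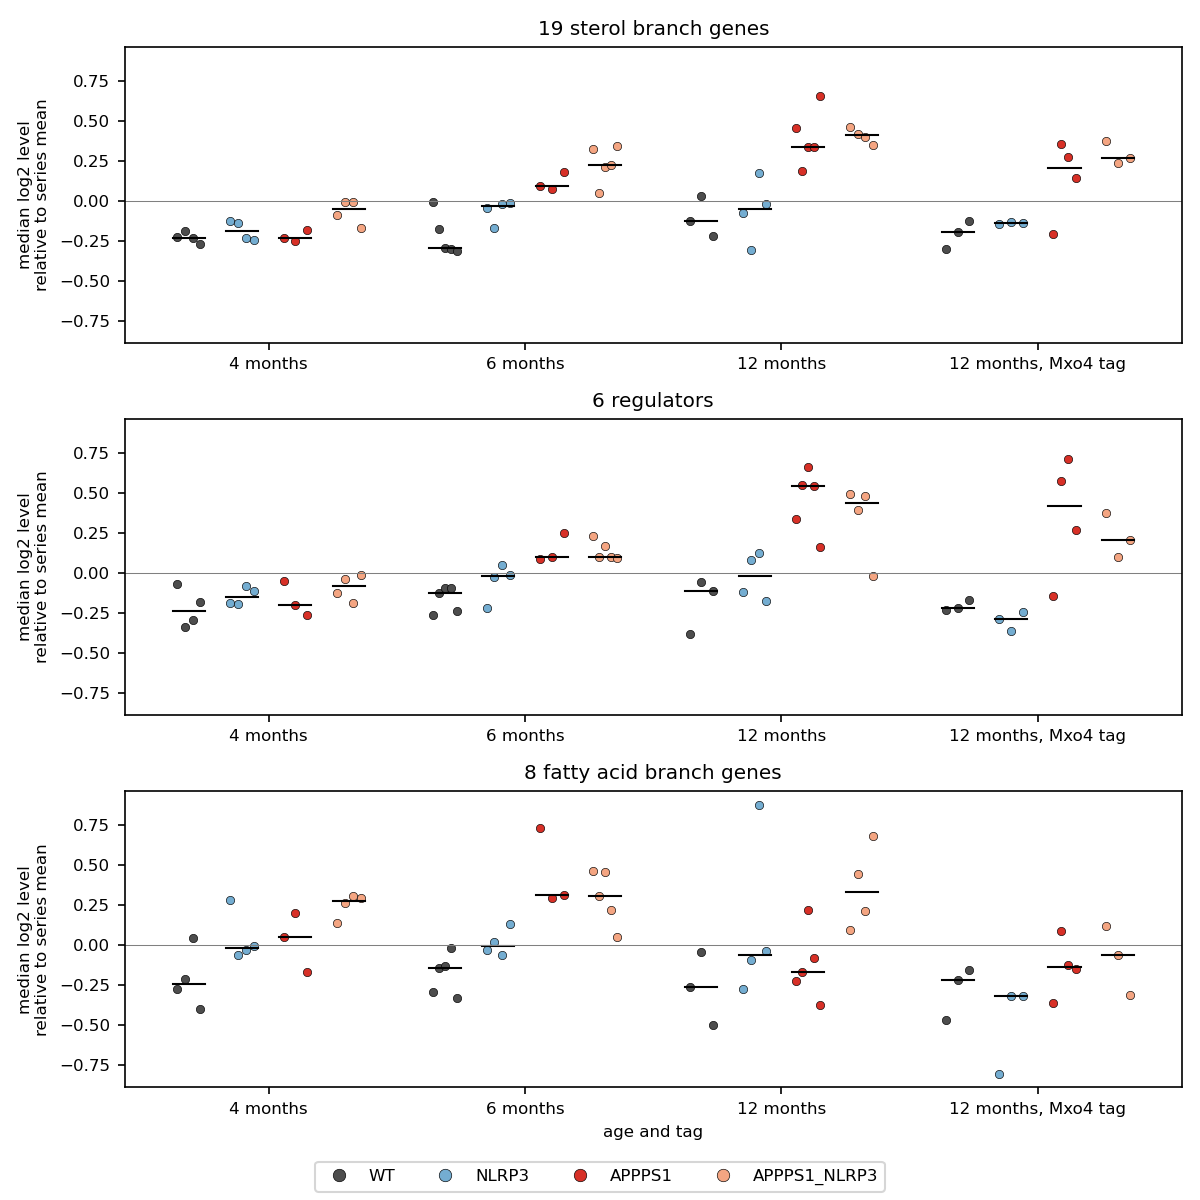
Median over the members of each branch of log2(CPM + 0.5) relative to the member's mean over groups (vertical axis), in every usable library by group (horizontal axis), in a panel each for the sterol branch, the regulators and the fatty acid branch. In the untagged 12-month groups the sterol branch separates (0.19 to 0.66 against -0.22 to 0.03 with Nlrp3) and the fatty acid branch overlaps, while at 6 months with Nlrp3 both separate. In the Mxo4 set both overlap with Nlrp3 and both separate without it.

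The second comparison asks what the loss of Nlrp3 does to these genes, with and without the transgenes. Without transgenes, NLRP3 against WT, edgeR called no member at 4, 6 or 12 months or in the Mxo4 set (0.398%, 0.488%, 1.59% and 0.101% of all genes called). At an unadjusted p under 0.05, 2, 8, 5 and 0 members were higher and none was lower. Of all 19865 genes, 1722, 1978, 3075 and 1085 passed that threshold in either direction. DESeq2 called 2 members at 12 months and 0 in the other 3. WT_12m was all female and NLRP3_12m all male, so Nlrp3 and sex cannot be told apart at 12 months. With the transgenes, APPPS1_NLRP3 against APPPS1, edgeR called no member at 4 months, 6 months or in the Mxo4 set (0.237%, 0.508% and 0.337% of all genes). There 5, 4 and 2 members were higher at an unadjusted p under 0.05, and DESeq2 called 1, 0 and 0. The unadjusted threshold was passed by 1043, 1575 and 1374 of all 19865 genes in either direction. Among the uncalled values, Fads1 at 4 months was at 200.01, 229.6, 233 and 241 CPM in APPPS1_NLRP3 and 132, 142 and 156 CPM in APPPS1, a difference of 0.67 ± 0.16 (adjusted p = 0.0503).

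At 12 months with the transgenes 3 members rose, all of the fatty acid branch, while 6.18% of all genes were called (2.73% higher and 3.44% lower). Fads1 was at 147, 148, 149 and 179 CPM in APPPS1_NLRP3 and 59, 78.3, 93.5, 113 and 123 CPM in APPPS1, a rise of 0.75 ± 0.14 (adjusted p = 0.00122) that held without any single library. Scd1 rose by 2.02 ± 0.50 (adjusted p = 0.0121), from 1.08, 1.85, 2.07, 3.5 and 4.45 CPM to 2.73, 4.7, 14.4 and 21.2 CPM. Its call was lost without replicate 44 (adjusted p = 0.0655) or replicate 49 (0.0999), the libraries with 14.4 and 21.2 CPM. Scd2 rose by 0.63 ± 0.18 (adjusted p = 0.0268) and was not called without replicate 38, 41, 44 or 49. Both groups differ in sex, all female in APPPS1_12m and all male in APPPS1_NLRP3_12m, and with sex as a further term no member was called. With the first title number as a term Scd1 was not called (1.89, adjusted p = 0.0503). With the sex term the differences were 0.60 for Fads1 (adjusted p = 0.0606), 1.56 for Scd1 (0.208) and 0.56 for Scd2 (0.192). Summed endothelial markers did not overlap, at 99.1 to 195 CPM in APPPS1_NLRP3_12m and 272 to 409.8 CPM in APPPS1_12m. Neuron markers overlapped, at 66.6 to 369 and 19.9 to 80.7 CPM. Oligodendrocyte markers were at 212 to 499.7 CPM, the highest in replicate 49, against 184 to 377 CPM, and also overlapped. All 8 endothelial, 9 neuron and 10 oligodendrocyte genes were detected in both groups, and their part in these results was not tested.

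Whether the effect of the transgenes itself differs with Nlrp3 was tested as the difference of both effects. In the untagged 12-month groups, those with Nlrp3 were all female and those without it all male. Nlrp3 and sex therefore cannot be told apart in that test. No member was called by edgeR at 4, 6 or 12 months or in the Mxo4 set (0%, 0.0201%, 0.00503% and 0% of all genes called). At an unadjusted p under 0.05, 0, 2, 2 and 0 members differed, and DESeq2 called 0 in all 4. The unadjusted threshold was passed by 361, 1488, 1995 and 817 of all 19865 genes. For Cyp51 at 12 months the difference of effects was -0.26 ± 0.24, with a 95% interval of -0.74 to 0.22. For Srebf2 it was -0.21 ± 0.24 (-0.68 to 0.26), for Insig1 -0.34 ± 0.23 (-0.79 to 0.10) and for Acaca -0.45 ± 0.44 (-1.30 to 0.40). These intervals leave room for differences as large as several of the effects themselves.

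The next comparison follows the members from 4 to 12 months within each genotype. In WT and in NLRP3 mice edgeR called no member (0.0302% and 0.448% of all genes called). At an unadjusted p under 0.05, 2 members were higher in WT and 8 in NLRP3, and DESeq2 called 0 in both. Of all 19865 genes, 1043 in WT and 2893 in NLRP3 passed the unadjusted threshold in either direction. In APPPS1 mice 16 members rose and 1 fell (22.4% of all genes called, 13% higher and 9.39% lower), and in APPPS1_NLRP3 mice 15 rose and 1 fell (12.1%, 7.24% higher and 4.9% lower). In NLRP3 and APPPS1_NLRP3 mice all 4-month libraries were female and all 12-month libraries male. Age and sex therefore cannot be told apart in these genotypes, for any member. Of the sterol branch, Cyp51 rose by 1.36 ± 0.18 in APPPS1 and 0.89 ± 0.17 in APPPS1_NLRP3, and Sc5d by 1.08 ± 0.14 and 0.96 ± 0.13. Sqle, which no transgene comparison called, rose with age by 0.89 ± 0.25 (adjusted p = 0.00642) and 0.81 ± 0.23 (adjusted p = 0.0144). Insig1 rose by 1.25 ± 0.17 and 0.85 ± 0.15, Srebf2 by 0.84 ± 0.17 and 0.65 ± 0.16, and Stard4 by 1.09 ± 0.32 and 0.96 ± 0.30. In the fatty acid branch Acaca rose by 1.85 ± 0.32 and 1.87 ± 0.30, while Fads1 fell (-0.61 ± 0.15 and -0.54 ± 0.15). Scd2 rose in APPPS1_NLRP3 (0.75 ± 0.19). Pmvk rose in APPPS1 (0.99 ± 0.21), and Hsd17b7, called in no transgene comparison, rose in APPPS1_NLRP3 (0.96 ± 0.28, adjusted p = 0.015).

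Whether the transgene effect grew between 4 and 12 months was tested as the difference of both effects. With Nlrp3, 8 members had a larger effect at 12 months and none a smaller (4.97% of all genes called, 3.69% larger and 1.27% smaller). They were Idi1, Fdps, Cyp51, Msmo1, Sc5d, Dhcr7, Insig1 and Acaca, of which 6 belong to the sterol branch. For Acaca the effect grew by 2.05 ± 0.45 (adjusted p = 0.0044), for Insig1 by 1.05 ± 0.23 (adjusted p = 0.00438) and for Sc5d by 1.01 ± 0.20 (adjusted p = 0.00218). Cyp51, Sc5d, Insig1 and Acaca kept the call under each of 15 leave-outs. Once the first title number entered the fit, Sc5d was the 1 member called, and the others had adjusted p from 0.0795 to 0.307. Scaled by library totals, 4 members were called higher and 2 lower, Fads1 and Acat2. Without Nlrp3, Fdft1 (0.70 ± 0.16) and Acaca (1.88 ± 0.43) had a larger effect at 12 months (1.02% of all genes called, 0.876% larger and 0.141% smaller), of which Fdft1 kept its call under each of 16 leave-outs. Age and sex cannot be told apart in this test, as the 4-month libraries were all female and the 12-month libraries all male.

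The last comparison sets the Mxo4 libraries against the other 12-month libraries of the same genotype. In WT and APPPS1_NLRP3 mice edgeR called no member (0.227% and 1.18% of all genes called). At an unadjusted p under 0.05, 2 and 6 members were lower, and DESeq2 called 0 in both. The unadjusted threshold was passed by 2095 and 2660 of all 19865 genes in either direction. In NLRP3 mice Scd1 and Scd2 fell (6.85% of all genes called, 2.11% higher and 4.74% lower). Scd1 was at 2.08, 3.11 and 3.97 CPM in NLRP3_12m_Mxo4 and 5.36, 8.72, 16 and 30.4 CPM in NLRP3_12m, a change of -2.22 ± 0.59 (adjusted p = 0.0171), and Scd2 changed by -0.84 ± 0.21 (adjusted p = 0.0115). Without NLRP3_12m replicate 47 neither was called, at -1.64 for Scd1 (adjusted p = 0.154) and -0.53 for Scd2 (adjusted p = 0.168). Leaving out replicate 50 also ended both calls, and replicates 51 and 55 that of Scd1. Replicate 47 also had the highest summed markers of oligodendrocytes (999 CPM), astrocytes (1098 CPM) and neurons (590 CPM) of all usable libraries. The NLRP3_12m_Mxo4 libraries had 213 to 249, 158 to 254 and 14.4 to 29.995 CPM of these markers, and the other 3 NLRP3_12m libraries began at 243, 192 and 89.2 CPM. The part of these cells in the difference was not tested.

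In APPPS1 mice 3 sterol members fell in the Mxo4 set (6.49% of all genes called, 2.76% higher and 3.73% lower). Fdps changed by -0.67 ± 0.17 (adjusted p = 0.0158), Cyp51 by -0.51 ± 0.16 (adjusted p = 0.0432) and Msmo1 by -0.63 ± 0.15 (adjusted p = 0.0128). No member was called without APPPS1_12m replicate 41 or without APPPS1_12m_Mxo4 replicate 56, nor when sex or the first title number entered the fit. Replicate 41 had the highest values of Fdps and Cyp51 in its group, and replicate 56 the lowest in its own.

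The wider lists place the members among other lipid genes. Of 7 genes for SREBP processing and sterol-regulated degradation that were found, edgeR called none in any of the 8 transgene comparisons. Over their 56 tests together, 1 was higher and 1 lower at an unadjusted p under 0.05, and DESeq2 called 0. Of 8 genes for sterol esterification, trafficking and hydroxylation, 4 rose in each of the 6 comparisons at 6 or 12 months. Ch25h, which makes 25-hydroxycholesterol, rose by 2.61 ± 0.45 at 6 months, 3.94 ± 0.54 at 12 months and 2.41 ± 0.52 in the Mxo4 set, and without Nlrp3 by 4.04 ± 0.49, 4.53 ± 0.55 and 3.81 ± 0.57. Soat1, which esterifies cholesterol for storage, rose by 1.04 ± 0.16 at 12 months and 0.87 ± 0.16 without Nlrp3. Npc2 and Lipa, which release cholesterol from lysosomes, rose by 1.5 ± 0.19 and 0.75 ± 0.11 at 12 months and by 1.04 ± 0.17 and 0.67 ± 0.11 without Nlrp3. Cyp46a1, the 24-hydroxylase known from neurons, fell in APPPS1 at 12 months (-1.43 ± 0.36, adjusted p = 0.00263), where neuron markers were at 19.9 to 80.7 CPM against 40.7 to 204 CPM in WT.

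Of 7 liver X receptors and their targets none rose, and Lpcat3, which remodels phospholipids, fell at 12 months in APPPS1 (-0.45 ± 0.10) and in both Mxo4 pairs (-0.38 ± 0.10 and -0.43 ± 0.11). Abca1 and Abcg1, the cholesterol exporters of that list, were not called at 12 months in APPPS1, at -0.29 ± 0.15 and 0.29 ± 0.13, nor was Nr1h3, which encodes LXR alpha (-0.77 ± 0.51, adjusted p = 0.304). Of 16 further genes of fatty acid synthesis and activation, 5 rose and 2 fell at 12 months in APPPS1, and 5 rose without Nlrp3. Slc25a1, the mitochondrial citrate carrier, and Hsd17b12, a reductase of fatty acid elongation, rose in 3 comparisons each. Gpam fell in 2 comparisons and Elovl5 rose in 2. Hacd2, a dehydratase of elongation, rose in 6 comparisons, by 1.28 ± 0.16 at 12 months in APPPS1 and 1.03 ± 0.16 in APPPS1_NLRP3. Of 6 near copies of members looked at for shared reads, 3 passed the filter, and edgeR called none in the 8 comparisons. Over these 24 tests together, 1 was higher and 2 lower at an unadjusted p under 0.05, and DESeq2 called 0.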

How the data were processed

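RNA of CD11b+ cells was made into libraries with the SMART-Seq v4 kit, in 2 batches that the titles do not name, and sequenced as paired reads, per the labels' protocols. The values are raw counts per gene deposited by the authors. Per the submitters' processing notes the tools were Trimmomatic, TopHat and HTSeq and the build was mm10. Their versions, settings and use of strand are not given in the sources used here. There are no molecular identifiers, so the precision that the totals of 659 to 27604393 counts give covers counting error only.

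Groups were taken from the titles. All 62 libraries entered a single edgeR 4.0.16 quasi-likelihood fit (R 4.3.3) with TMM factors, a filter (filterByExpr, minimum count 10 and minimum total 15), and terms for group and for the second number in the title, which the labels do not explain. P-values were adjusted by the Benjamini-Hochberg method over the 19865 genes tested, and a gene was called at 0.05. SE is the absolute log2 difference over the square root of F, and intervals at 95% use 1.96 SE. Levels are CPM, counts divided by the TMM-scaled library size. They leave out libraries under 100000 counts. The fit was tested on simulated data.

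Alternatives were RLE factors, library totals, DESeq2 1.42.0, no filter, a sex term, a term for the first title number, each second title number alone, and each library left out in turn. The 33 members and the wider lists were chosen with earlier results of these data known, and the check of overlapping genes was added after the data were seen. All 33 members are named. Values in every library are given for members called in at least 4 of the 8 transgene comparisons and for Srebf1, Srebf2, Insig1, Insig2, Scap, Scd1, Scd2 and Fasn, and Fads1 was added at 12 months after its values were seen. Of each wider list up to 4 genes called in most of the 8 comparisons are named, with Cyp46a1 and Elovl5 in addition. Other genes of these pathways were not analysed here.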

Additional observations from a re-analysis of the deposited data

Results flagged for a closer look

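In groups of 4 or 5 usable libraries, 330 sets of values were examined, each set holding the libraries of 1 group for 1 member. In 23 sets the highest or lowest library stood apart from the others of its group by Dixon's criterion. Chance gives about 1 in 20. The largest number in a single library was 5, in APPPS1_12m replicate 41, the shallowest of its group. Its values of Mvk (9.33 CPM), Fdps (17.8 CPM), Cyp51 (90.9 CPM) and Nsdhl (33.8 CPM) were high and that of Acly (151 CPM) was low. In NLRP3_12m replicate 45, the library with 1394435 counts, Dhcr7 (47.9 CPM) and Insig1 (55.2 CPM) were high. In APPPS1_12m_Mxo4 replicate 56, Fdps was low at 4.84 CPM.

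The other high values were Pmvk in APPPS1_NLRP3_12m replicate 43 (13.2 CPM) and in NLRP3_6m replicate 33 (10.6 CPM), Cyp51 in the latter (31.3 CPM) and Ebp in WT_6m replicate 16 (58.3 CPM). Scd1 was high in NLRP3_4m replicate 8 (16.1 CPM) and WT_4m replicate 5 (6.73 CPM), and Fads1 in APPPS1_NLRP3_12m replicate 49 (179 CPM). Low values were Acat2 in APPPS1_NLRP3_4m replicate 9 (8.6 CPM), Pmvk in WT_6m replicate 20 (4.78 CPM) and Idi1 in NLRP3_4m replicate 15 (13.1 CPM). Tm7sf2 (4.73 CPM) and Elovl6 (1.72 CPM) were low in NLRP3_6m replicate 32, Srebf1 in WT_6m replicate 18 (27.5 CPM), Srebf2 in APPPS1_NLRP3_12m replicate 44 (60.6 CPM) and Fads1 in APPPS1_NLRP3_6m replicate 25 (111 CPM).

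The transgene effect was larger at 12 than at 4 months by edgeR's test of the difference in 8 members with Nlrp3. The log2 differences of the effects were 1.09 for Idi1 (adjusted p = 0.0239), 0.93 for Fdps (0.0309), 1.02 for Cyp51 (0.0103) and 0.81 for Msmo1 (0.0333). They were 1.01 for Sc5d (adjusted p = 0.00218), 0.81 for Dhcr7 (0.0294), 1.05 for Insig1 (0.00438) and 2.05 for Acaca (0.0044). Without Nlrp3 they were 0.70 for Fdft1 (adjusted p = 0.0173), whose reads cannot be told from those of Ctsb, and 1.88 for Acaca (0.0193). In those groups the 4-month libraries were all female and the 12-month libraries all male.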

How the results depend on the processing

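No paired analysis was possible because the replicate number, the last in each title, occurs once in the series. The first and second title numbers recur across groups without a stated meaning, and were terms in an alternative and in the reported fit. Of 122 named differences between groups, none changed direction under DESeq2, RLE factors, library totals, no filter, the sex term or the first title number, and 111, 105, 89, 114, 112 and 85 of them were called on the same side. Counts of members called that moved by more than 1.5 times were as follows, and the cause was not tested. For APPPS1 against WT at 6 months the count was 1 with the first title number as a term, and 1 and 3 with second title number 1 or 2 alone. At 12 months it was 7 with second number 1 alone, and in the Mxo4 set 7 with RLE factors, 6 with library totals, 6 with the first number and 0 with second number 2 alone. In that last setting replicate 56 is the only APPPS1 library, and Hmgcs1 (-0.15), Cyp51 (-0.37), Acaca (-0.45) and Scd2 (-0.19) changed direction. For APPPS1_NLRP3 against NLRP3 it was 1 at 6 months with second number 2 alone, and at 12 months 7 with library totals and 5 with second number 1 alone. For NLRP3 against WT it was 1 at 6 months and 1 at 12 months with library totals, and 2 at 12 months with DESeq2. For APPPS1_NLRP3 against APPPS1 it was 1 at 4 months with DESeq2, 1 with no filter and 1 with the sex term. At 12 months it was 5 with library totals, 0 with the sex term, and 0 and 7 with second number 1 or 2 alone, and in the Mxo4 set 7 with second number 2 alone. From 4 to 12 months in APPPS1_NLRP3 it was 6 and 9 with either second number alone. For Mxo4 against untagged libraries it was 0 and 0 with either second number alone in NLRP3. In APPPS1 it was 0 with the sex term, 0 with the first number, and 0 and 14 with second number 1 or 2 alone. The interaction with Nlrp3 in the Mxo4 set gave 1 with second number 2 alone. The age interaction with Nlrp3 gave 1 with the first number, and 0 and 5 with either second number alone. Without Nlrp3 it gave 1 with library totals and 0 and 0 with either second number alone. Comparisons with APPPS1_NLRP3_12m_Mxo4 gave no value for second number 1, which that group lacks.

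Leaving out each library in turn gave 2 to 7 members for APPPS1 against WT at 6 months, 15 to 20 at 12 months and 5 to 16 in the Mxo4 set. The lowest counts were without replicate 22 or 24, without replicate 34, and without replicate 57, 58 or 61, and the 16 was without replicate 56. Without Nlrp3 the counts were 6 to 9, 8 to 15 and 7 to 12. For NLRP3 against WT at 12 months they were 0 to 3, the 3 without replicate 42, and for APPPS1_NLRP3 against APPPS1 at 12 months 1 to 5. With age they were 14 to 18 in APPPS1 and 12 to 16 in APPPS1_NLRP3. For the Mxo4 libraries they were 0 to 4 in NLRP3, 0 to 5 in APPPS1 and 0 to 1 in APPPS1_NLRP3, and for the age interactions 4 to 11 and 1 to 2. The other counts were 0 throughout. At the depth of replicates 45 and 41, values of the low members are less precise than in the other libraries.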
